A study of Mus musculus with 7 samples.

Results

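The genes described here are 9 transcription factors of epithelial-mesenchymal transition (EMT), taken as the rows of the count table with the symbols Snai1, Snai2, Zeb1, Zeb2, Twist1, Twist2, Ovol1, Ovol2 and Grhl2. All 9 were among the 55484 genes listed, and 8 of them had enough counts to be tested, Ovol1 being the exception. RNA-seq libraries of mouse embryonic fibroblasts (MEFs, n = 4) and mouse embryonic stem cells (mESCs, n = 3) were compared, all labelled as C57/Bl6 background with no further allele, agent or treatment named for either cell type. MEFs are adherent connective tissue cells, whereas mESCs derive from the early embryo and can form all of its tissues. The study chose this well-known pair of cell types to benchmark sequencing platforms for chromatin libraries, and used the RNA libraries to see which TFs of the motifs found were expressed. Its methods describe a sort for Thy1+ MEFs and for Thy1-, Ssea1+ and Epcam+ mESCs for the chromatin libraries of the same study, so Thy1 and Epcam are sort markers and not findings. The study's figure legends speak of biological replicates, in a number equal to the mESC libraries but below that of the MEF libraries used here. Neither they nor the labels name separate cultures or animals for these libraries, so p-values measure the spread between these libraries, which may be technical.

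EMT is the loss of cell-cell junctions and polarity by which epithelial cells become migratory mesenchymal cells, as in gastrulation and neural crest formation. The zinc finger repressors of the SNAI and ZEB families bind E-boxes with the letters CAGGTG in promoters of junction genes such as Cdh1, and the TWIST factors are basic helix-loop-helix proteins that pair with E proteins and mark mesenchyme. OVOL and GRHL factors act on the other side, with OVOL proteins repressing Zeb genes and Grhl2 activating junction genes, and mESCs are known to grow as compact colonies held together by E-cadherin.

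The 7 libraries held 6528643 to 11441278 counts on genes, and a floor of 3 counts corresponded to 0.288 to 0.477 CPM (counts scaled to a common library size by TMM) between libraries, which covers counting error only. Libraries are named by their total counts, and values are given in the order 11441278, 7312679, 9176467 and 6528643 counts for MEFs and 8193825, 8057985 and 7462710 counts for mESCs. The labelled cell types were checked by marker genes. All 10 fibroblast markers were lower and all 10 pluripotency markers higher in mESCs at an adjusted p of 0.05 (the quasi-likelihood test of edgeR, Benjamini-Hochberg adjusted over all genes, used for every adjusted p below unless another family is named). Keratinocyte markers were detected in every library, with a summed level of 174 to 211 CPM in MEFs and 212 to 291 CPM in mESCs. Of these 8 markers, 7 were without a call, while Sfn was higher in mESCs. Of the 7 endothelial markers, 5 were tested (1 higher and 1 lower in mESCs), of the 7 blood cell markers 5 (1 higher, 2 lower), of the 7 neural crest and neural progenitor markers 4 (2 higher) and of the 7 primitive streak and endoderm markers 3 (1 higher). The protocol in the labels describes RNA of young and aged HSC, which is not one of these cell types.

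The 9 factors split by role. All 6 mesenchymal factors, Snai1, Snai2, Zeb1, Zeb2, Twist1 and Twist2, were lower in mESCs, while Ovol2 and Grhl2 of the epithelial side were higher and Ovol1 was at a similar low count in both cell types. For reference, 25.0% of the 16580 genes tested were called lower and 22.8% higher in mESCs, so a call in itself was common. In all 8 genes tested the ranges of MEF and mESC libraries were disjoint, which held for 26.3% of all tested genes in the lower and 25.8% in the higher direction. The sum over the 9 genes was 433 to 479 CPM in MEFs and 42.5 to 69.5 CPM in mESCs. In bulk RNA a lower level can come from fewer cells with the transcript or from less of it per cell, and these cannot be told apart. TMM scaling set the median of all genes at 0.04 on the log2 scale, 0.29 below its place when counts were scaled by library size alone (3785 higher and 4153 lower calls against 5205 and 3334), and the 8 genes kept their direction and call under both.

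**Figure D1:**
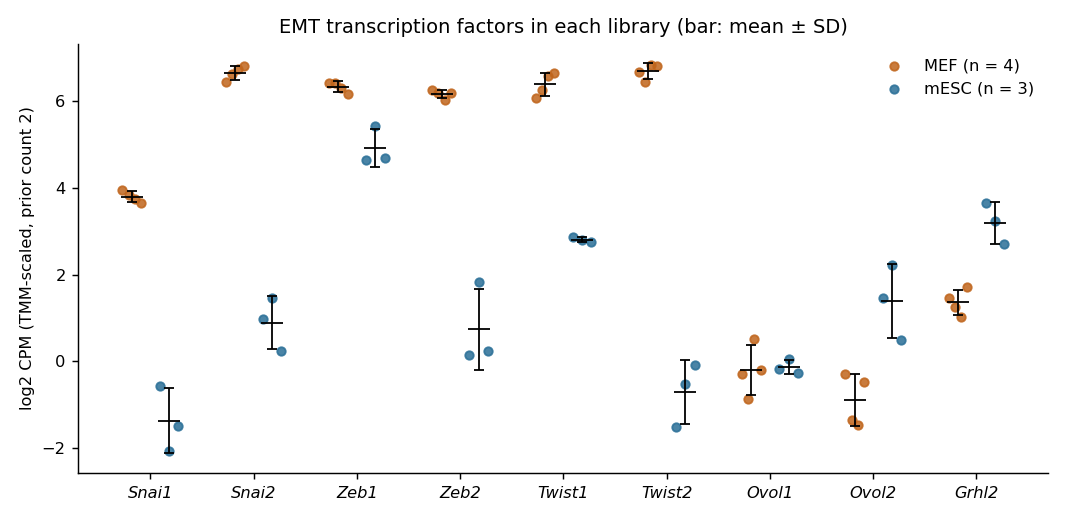
Expression of the 9 factors in log2 CPM (y axis, prior count 2), with each of the 4 MEF and 3 mESC libraries as a point and the mean with SD as a bar. The 6 mesenchymal factors lie higher in every MEF library, Ovol1 overlaps, and Ovol2 and Grhl2 lie higher in every mESC library.

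Snai1, the founding repressor of E-cadherin in EMT (chromosome 2, 167538195 to 167542814 on GRCm38, plus strand), had 15.3, 13.9, 13.2 and 12.3 CPM in the MEF libraries and 0.433, 0 and 0.118 CPM in the mESC libraries. In mESCs this was 4, 0 and 1 counts, so the library with no count allows up to 0.341 CPM at the 3-count floor and Snai1 was at the limit of detection. The fitted log2 fold change was -6.07 (SE 0.60, adjusted p = 1.44e-05, edgeR), and the mean CPM in mESCs was 1.34% of that in MEFs. It moved between -7.55 and -5.53 when libraries were left out in turn, both ends set by mESC libraries (those of 8193825 and 8057985 counts). Snai1 is known to bind an E-box in its own promoter. The 250 bases before its start (RefSeq, GRCm38.p6, chr2:167537945-167538194, plus strand) are shown, with the E-box in capitals. It reads CACCTG here and CAGGTG on the other strand, and lies 126 bases before the start. Of the 5 factors whose promoter windows were searched, Snai1 was the only 1 to hold it, which is why it is shown. Over all 27025 genes with a window, 22.6% held it, a share near that of the factors searched.
Snai1 promoter: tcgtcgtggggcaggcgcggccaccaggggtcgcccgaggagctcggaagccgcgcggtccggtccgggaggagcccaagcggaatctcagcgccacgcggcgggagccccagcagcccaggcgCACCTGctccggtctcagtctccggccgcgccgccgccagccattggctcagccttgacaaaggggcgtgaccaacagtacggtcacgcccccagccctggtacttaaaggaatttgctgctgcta

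Snai2 (Slug), the SNAI family member of neural crest and connective tissue (chromosome 16, 14705852 to 14709385, plus strand), had 85.7, 97.4, 106 and 110 CPM in MEFs against 1.73, 2.50 and 0.942 CPM in mESCs. The lowest MEF library was far above the highest mESC library, with a log2 fold change of -5.84 (SE 0.30, adjusted p = 1.47e-07, edgeR). The mESC counts of 16, 22 and 8 were above the 3-count floor in every library. Snai1 made up 10.0% to 15.1% of the counts of both genes in MEFs, and its share in mESCs rests on 4, 0 and 1 counts. The log2 ratio of Snai1 to Snai2 did not differ detectably (mESCs minus MEFs -0.43, exact permutation test p = 0.829, two-sided), and its direction turned with 1 library or with the number added to the counts (0.67 without the mESC library of 8057985 counts, 0.54 with 2 counts added).

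Zeb1 stood out among the 6 as the factor with the largest share of its MEF level left in mESCs. This 2-handed zinc finger and homeodomain repressor had 85.1, 84.9, 78.6 and 70.5 CPM in MEFs and 24.7, 42.2 and 25.3 CPM in mESCs. Every mESC library was below every MEF library, and the mESC mean was 38.5% of the MEF mean (79.8 ± 6.87 CPM, SD, n = 4, against 30.7 ± 9.95 CPM, SD, n = 3). The log2 fold change was -1.37 (SE 0.22, adjusted p = 4.09e-04, edgeR). Tested against a fold change of 2, Zeb1 was the only 1 of the 8 genes that lost its call (adjusted p = 0.0604).

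Zeb2 (Sip1), its paralog with the same 2 zinc finger clusters (chromosome 2, 44983632 to 45117395, minus strand), had far less of its MEF level left in mESCs (2.40%). It had 75.2, 72.1, 64.2 and 72.3 CPM in MEFs and 0.866, 3.29 and 0.942 CPM in mESCs. The mESC library of 8057985 counts was 3.49 times the next highest mESC library for Zeb2 and 1.67 times for Zeb1. Of 15435 genes with at least 30 counts summed, 6.87% exceeded 1.5 times the other mESC libraries in this library, against 6.26% and 6.13% in the others. The log2 fold change of Zeb2 was -5.37 (SE 0.41, adjusted p = 2.23e-06, edgeR). Without that library it was -6.27 and that of Zeb1 was -1.67, the lowest values for both genes when libraries were left out in turn. Zeb2os, the antisense transcript over the 5′ end of Zeb2, had 10, 18, 13 and 0 counts in MEFs and 0 in all 3 mESC libraries.

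The Zeb pair therefore changed in composition. Zeb1 gave 53.1%, 54.1%, 55.0% and 49.4% of the counts of both Zeb genes in MEFs and 96.6%, 92.8% and 96.4% in mESCs. The log2 ratio of Zeb1 to Zeb2 was 4.19 higher in mESCs, with no overlap of libraries (exact permutation test p = 0.0286, two-sided, the smallest that 35 assignments of 7 libraries allow; 0.0381 adjusted over 4 pairs). A change in a ratio within a library needs no scaling by depth or gene length, although the libraries start from the 3′ end and the level of one gene against another was not compared.

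**Figure D2:**
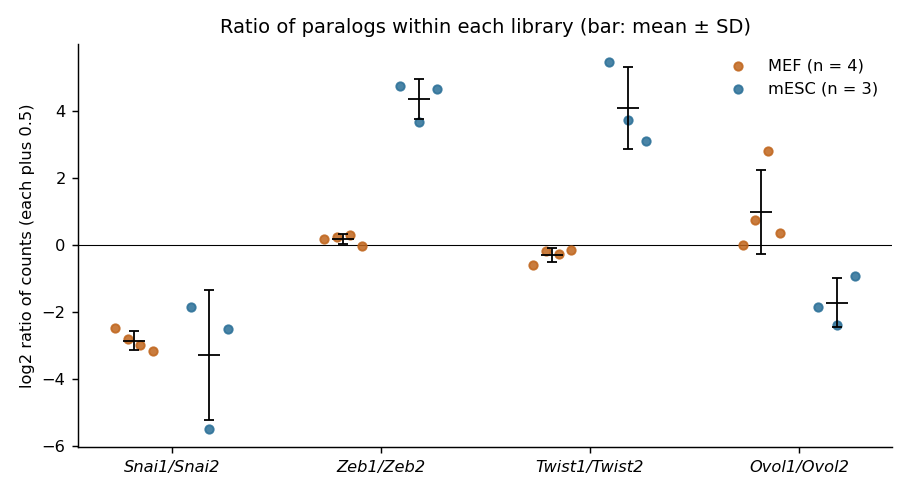
Log2 ratio of the counts of 2 paralogs (y axis, 0.5 added to each count) in each MEF and mESC library, with mean and SD. The Zeb1/Zeb2 and Twist1/Twist2 ratios are near 0 in MEFs and above 3 in all mESC libraries, Ovol1/Ovol2 is lower in mESCs, and Snai1/Snai2 overlaps.

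Twist1, the basic helix-loop-helix factor of head mesenchyme and limb (chromosome 12, 33957671 to 33959829, plus strand), had 66.5, 75.7, 94.0 and 99.2 CPM in MEFs and 7.03, 6.70 and 6.48 CPM in mESCs. The mESC libraries were close to each other (SD 0.06 on the log2 scale) and all lay far below the MEF libraries. The log2 fold change was -3.63 (SE 0.21, adjusted p = 3.61e-07, edgeR), and 8.03% of the MEF level was left.

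Twist2 (Dermo1), a factor of dermis and connective tissue (chromosome 1, 91801461 to 91848028, plus strand), had the lowest fold change of the 8 genes tested. It had 101, 86.6, 113 and 110 CPM in MEFs and 0.108, 0.454 and 0.707 CPM in mESCs, the latter from 1, 4 and 6 counts. These counts have 95% Poisson intervals (counting error only) of 0.00274 to 0.603, 0.124 to 1.16 and 0.259 to 1.54 CPM. The log2 fold change was -7.90 (SE 0.36, adjusted p = 7.05e-08, edgeR), which placed Twist2 28th from the lowest of 16580 genes. Twist2 shares 46.5% of its exonic bases with Gm29100 on the opposite strand, which had 18, 12, 5 and 13 counts in MEFs and 1, 1 and 0 in mESCs. The strand setting of the counting is not given in the sources used here, so reads from the pair cannot be told apart. Snai1, Snai2 and Twist1 share no exonic base with another annotated gene.

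Twist1 gave 39.6% to 47.4% of the counts of the Twist pair in MEFs and 98.5%, 93.7% and 90.2% in mESCs. The log2 ratio of Twist1 to Twist2 was 4.39 higher in mESCs (exact permutation test p = 0.0286, two-sided; 0.0381 adjusted over 4 pairs). In both families, then, the pair was near balance in counts in the fibroblasts, and 1 paralog held over 90% of the counts in each mESC library.

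The 6 mesenchymal factors differed in how much was left in mESCs, and this was set beside the fibroblast markers. The 10 markers kept 0.168% to 16.5% of their MEF level (median 0.883%, Lum the highest). Snai1 (1.34%), Snai2 (1.73%), Zeb2 (2.40%) and Twist2 (0.411%) lay within that range, with 4, 4, 2 and 9 of the 10 markers above them. Twist1 at 8.03% had 1 marker above it, and Zeb1 at 38.5% had 0. Whether the low levels of these factors in mESC libraries come from the stem cells themselves was not tested.

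**Figure D3:**
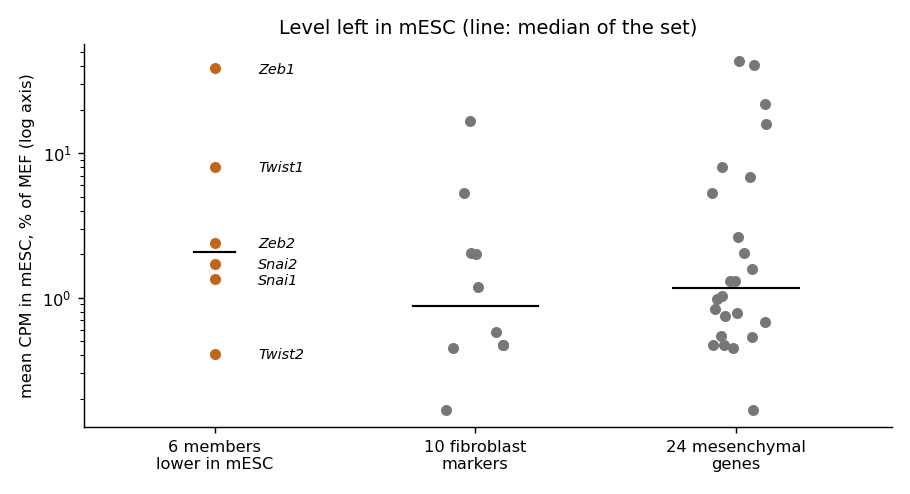
Mean CPM in mESCs as a percent of that in MEFs (y axis, log scale) for the 6 mesenchymal factors, 10 fibroblast markers and 24 mesenchymal genes. Each set has 1 point for each gene and the median as a line. Most of the markers, Fap among them, also belong to the mesenchymal genes and are shown in both sets. Zeb1 at 38.5% lies above all fibroblast markers but below the mesenchymal genes Itga5 (43.0%) and Fn1 (40.9%), whereas Twist2, Snai1, Snai2 and Zeb2 lie among the markers.

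Ovol2, a zinc finger repressor of Zeb1 and of the mesenchymal state (chromosome 2, 144305175 to 144332146, minus strand), had 0.576, 0.153, 0.120 and 0.477 CPM in MEFs, from 6, 1, 1 and 3 counts. In mESCs it had 2.49, 4.43 and 1.18 CPM, from 23, 39 and 10 counts. The lowest mESC library was above the highest MEF library, and the mean was 8.14 times higher. The log2 fold change of 2.94 (SE 0.71, adjusted p = 0.00599, edgeR) was the least secure call of the 8 when libraries were left out, with an adjusted p of 0.0438 and a value of 2.39 without the mESC library of 8057985 counts. Of its exonic bases, 17.0% are shared with 1700108N11Rik on the opposite strand, which had 0 counts in 6 libraries and 2 in the mESC library of 7462710 counts.

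Ovol1, the paralog known from epidermis and germ cells (chromosome 19, 5549136 to 5560646, minus strand), had 6, 2, 10 and 4 counts in MEFs and 6, 7 and 5 in mESCs. With these counts it was below the filter for testing. The mean levels were 0.679 ± 0.375 CPM (SD, n = 4) and 0.678 ± 0.106 CPM (SD, n = 3), and the libraries overlapped (exact permutation test p = 0.714, two-sided). A difference was not detectable at this depth. Of the exonic bases of Ovol1, 19.8% are shared with Gm31166 on the opposite strand. Gm31166 had 7, 1, 2 and 0 counts in MEFs and 1, 3 and 8 in mESCs. The strand setting is not given, so reads from Ovol1 and Gm31166 cannot be told apart. The log2 ratio of Ovol1 to Ovol2 differed by -2.70 (mESCs minus MEFs, exact permutation test p = 0.0286, two-sided; 0.0381 adjusted over 4 pairs), resting on 1 to 10 counts a gene in MEFs.

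Grhl2, a grainyhead factor that activates Cdh1 and claudin genes (chromosome 15, 37233036 to 37363569, plus strand), had 2.50, 2.14, 1.80 and 3.02 CPM in MEFs and 12.2, 9.08 and 6.24 CPM in mESCs. All 3 mESC libraries were above all MEF libraries, by 3.88 times on average. The log2 fold change was 1.96 (SE 0.38, adjusted p = 0.00145, edgeR), and it kept its call against a fold change of 2 (adjusted p = 0.0178). In the study, key TFs of the stem cell state were expected to exceed 2 log2CPM in mESCs and to be higher there than in MEFs. This rule was stated for TFs of its top motifs, which it ranked again by their expression difference. The 9 factors were taken here without regard to motifs. Of the 9 factors, Zeb1, Twist1 and Grhl2 exceeded 2 log2CPM in mESCs (4.91, 2.80 and 3.19), and only Grhl2 also had a higher mean than in MEFs. Ovol2, at 1.39 log2CPM, joined it with a threshold of 1.

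**Figure D4:**
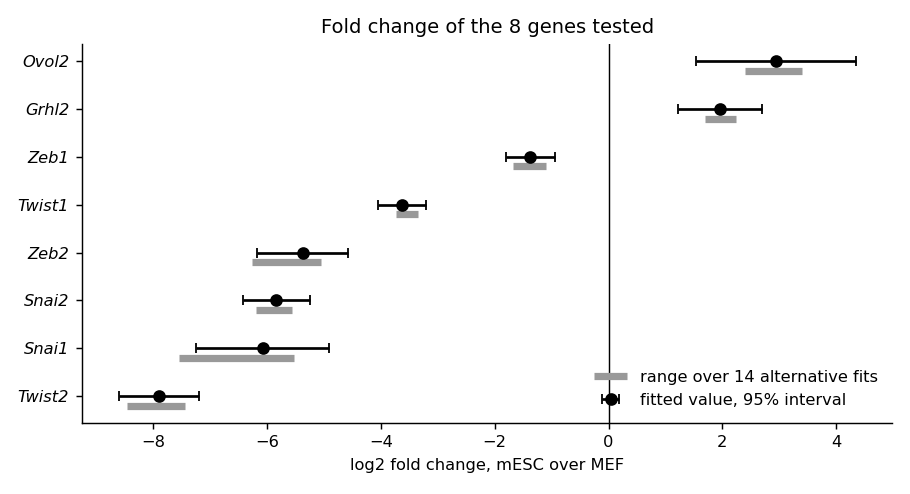
Log2 fold change of mESCs over MEFs (x axis) for the 8 factors tested. Shown are the fitted value with an approximate 95% interval (black) and the range over 14 alternative fits (grey). The interval is the SE times a normal quantile on either side, which is narrower than the quasi-likelihood test implies. Values run from -7.90 for Twist2 to 2.94 for Ovol2, and no interval or range reaches 0.

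Paralogs outside the list were sparse, and those with at least 10 counts in a library were Snai3, Grhl1, Grhl3 and Scrt2. Grhl3, a grainyhead factor of the epidermal barrier and neural tube, was the only paralog with enough counts to be tested. It had 0.384, 0.153, 1.68 and 0.318 CPM in MEFs and 6.82, 10.7 and 6.13 CPM in mESCs, a log2 fold change of 3.57 (SE 0.65, adjusted p = 0.00103, edgeR). Grhl1 had 1, 2, 2 and 4 counts in MEFs and 24, 4 and 39 in mESCs, so the libraries overlapped at 4 counts. Snai3, the third SNAI gene, had 0 counts in all 4 MEF libraries and 27, 9 and 17 in mESCs, at least 5.01-fold higher when MEFs are set to the mean floor of 3 counts per library. Without the filter on low counts, Snai3 and Grhl1 were also called higher, and likewise without the mESC library of 8057985 counts. The libraries of Snai3 did not overlap either, in the opposite direction to Snai1 and Snai2 (exact permutation test p = 0.0286, two-sided). Scrt2, a SNAI-related factor of neurons, had 5, 6, 7 and 3 counts in MEFs and 10, 8 and 12 in mESCs and was not tested.

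The 250 bases before the start of Grhl3 (RefSeq, GRCm38.p6, chr4:135573633-135573882, minus strand) are shown because of the 3 paralogs whose windows were searched it was the only 1 to hold the CAGGTG E-box. The capitals mark CACCTG, 19 bases before the start, and a further match lies 8 bases after the start. This motif, searched on both strands, was found in 20.2% of 32851 promoter windows of 300 bases. The core letters read by OVOL proteins (CCGTTA) were in 2.76% and an 8-base grainyhead site (AACCNGTT) in 2.09% of windows, and no searched window of the factors or paralogs held either. Windows of Snai2, Zeb1, Ovol1 and Grhl2 were not among those searched. Of the epithelial genes described below, 1 of 19 searched held the OVOL core and 1 the grainyhead site. Of 13 mesenchymal genes searched, 1 held the OVOL core and 0 the grainyhead site. A match is a description of letters and not a bound site.
Grhl3 promoter: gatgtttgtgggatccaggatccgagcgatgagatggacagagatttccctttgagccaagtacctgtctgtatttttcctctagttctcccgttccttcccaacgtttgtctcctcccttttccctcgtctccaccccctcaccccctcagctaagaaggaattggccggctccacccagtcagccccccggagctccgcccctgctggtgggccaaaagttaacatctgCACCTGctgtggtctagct

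The genes that the listed factors are known to act on were taken as 2 lists. Of 28 epithelial genes described as repressed by SNAI and ZEB proteins, 25 were tested, 16 were higher and 2 lower in mESCs, with a median log2 fold change of 4.04 against 0.04 for all genes tested. Cdh1, the E-cadherin gene, had 2.69, 5.19, 2.76 and 3.02 CPM in MEFs and 101, 79.3 and 90.2 CPM in mESCs. Spint1 (log2 fold change 6.81), Elf3 (5.67) and Cldn4 (5.54) had the largest values, and Epcam, a sort marker, had 4.48. Krt18 (-1.49) and Krt19 (-2.27), keratins of simple epithelium, were the 2 that fell. Esrp1, the splicing regulator that ZEB proteins repress, was at 3.27 ± 2.27 CPM (SD, n = 4) in MEFs and 8.68 ± 2.09 CPM (SD, n = 3) in mESCs without a call (adjusted p = 0.0610, edgeR), and Esrp2 was too low to be tested. All 24 mesenchymal genes were lower in mESCs, from Fap at -8.67 to Itga5 at -1.21 (median -6.42), with Vim at -5.98 and Cdh2, the N-cadherin gene, at -5.23. Both lists were drawn from genes that define the 2 states, so these counts restate the difference between the cell types.

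Promoter windows of 19 of the 28 epithelial genes were searched, and 17 of these held the CAGGTG E-box, against 1 of 13 mesenchymal genes searched. Cdh1 was not among the genes searched. Within the epithelial list the E-box was found in 10 of 11 genes called higher, 5 of 6 without a call, the 1 called lower (Krt18) and the 1 not tested (Cldn3). Part of this list became known through such E-boxes, so the count is not independent of how the list was made. Over all 11001 tested genes with a window, 25.1% of those called higher, 17.5% of those called lower and 20.9% of those without a call held it. The sites below belong to the 6 genes with the largest fold change among the called genes with a match, and are shown as examples of the letters that SNAI and ZEB proteins are known to read. Whether these factors have a part in the levels of these genes was not tested. Capitals mark the E-box, given as CAGGTG or CACCTG by strand, with 10 bases on either side (RefSeq, GRCm38.p6). They lie at chr1:135258597-135258622 (minus strand) for the epithelial factor Elf3, chr5:134946933-134946958 (minus) for the claudin Cldn4, chr17:57062128-57062153 (plus) for the polarity gene Crb3, chr17:23679262-23679287 (plus) for Cldn6 and chr13:100552551-100552576 (minus) for occludin. For Epcam the 250 bases before the start are given (chr17:87635729-87635978, plus strand), with E-boxes 187 and 19 bases before the start. Cldn4, Crb3, Cldn6 and Ocln had further matches that are not shown. In the Crb3 site the OVOL core (CCGTTA) lies directly before the E-box and is left in lower case.
Elf3 site: atatgcaaatCACCTGggacagggag
Cldn4 site: ttaactgcagCACCTGtggccgccct
Crb3 site: gttcccgttaCAGGTGctctggcggc
Cldn6 site: gaaacgcacgCAGGTGgctatcgccg
Ocln site: aggggctcggCAGGTGggtcccagcg
Epcam promoter: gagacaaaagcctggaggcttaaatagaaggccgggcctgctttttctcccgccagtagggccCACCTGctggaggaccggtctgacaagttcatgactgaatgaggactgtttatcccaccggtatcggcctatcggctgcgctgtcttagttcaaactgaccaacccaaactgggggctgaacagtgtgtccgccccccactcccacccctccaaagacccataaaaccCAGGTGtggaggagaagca

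**Figure D5:**
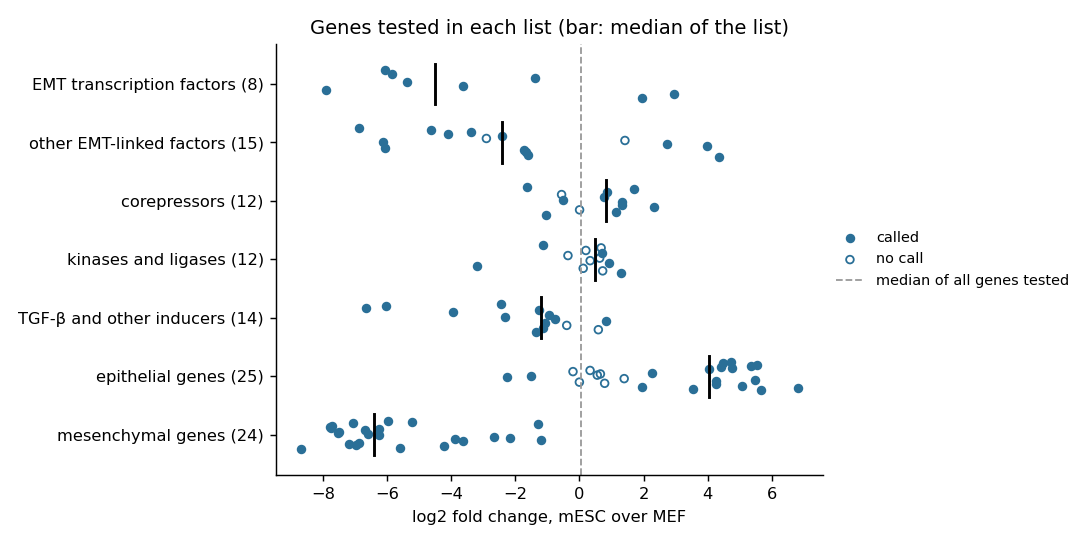
Log2 fold change of mESCs over MEFs (x axis) for the tested genes of each list, with called genes filled, others open, the list median as a bar and the median of all genes as a dashed line. The mesenchymal genes lie wholly below 0 (median -6.42), most epithelial genes lie above (median 4.04), and the corepressors have a median of 0.82.

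Partners of the factors were taken from lists of their own. Of 16 other TFs linked to EMT, 15 were tested, 10 were lower and 3 higher in mESCs. Prrx1, a homeobox factor of limb mesenchyme that acts with Twist1, had a log2 fold change of -6.87, followed by Sox9 (-6.11) and Hmga2 (-6.07), while Mycn (4.36), Foxq1 (3.97) and Klf8 (2.73) were higher. The E proteins with which TWIST factors pair were lower as well, with Tcf4 at -1.68, Tcf12 at -1.59 and Tcf3 at -1.72. Tcf3 split within the MEFs, with 181, 73.0, 178 and 72.4 CPM, all above the 36.2 to 40.6 CPM of mESCs.

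The corepressors recruited by SNAI and ZEB proteins did not move in one direction. Of 12 tested, 7 were higher and 3 lower in mESCs (median 0.82). Ctbp2, 1 of the C-terminal binding proteins recruited by ZEB factors, was higher (37.8 ± 10.9 CPM in MEFs, SD, n = 4, against 122 ± 13.1 CPM in mESCs, SD, n = 3) and Ctbp1 was lower (63.7 ± 4.28 against 20.6 ± 4.02 CPM). Suz12 (2.31) and Sin3a (1.32) were also higher, and Limd1 (-1.03) and Hdac2 (-0.52) lower. Among 12 kinases and ubiquitin ligases of SNAI and TWIST proteins, 3 were higher and 2 lower, shares near those of all genes tested (22.8% and 25.0%). Lats2, a Hippo kinase that phosphorylates Snai1, had a log2 fold change of -3.19, and Gsk3b, the kinase that marks Snai1 for degradation, had -1.13, while Trim28 (1.29), Pak1 (0.91) and Fbxl5 (0.71) were higher.

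TGF-β signalling is a known inducer of these factors, and its genes were listed together with Hif1a, Egr1, Rela, Lef1 and Stat3, which belong to other inducing routes. Of the 14 genes tested, 11 were lower and 1 higher in mESCs (median -1.20), and Hif1a (-1.06), Rela (-1.14) and Stat3 (-1.36) of the other routes were among the 11. The ligands Tgfb3 (-6.67) and Tgfb2 (-6.02) and the receptor Tgfbr2 (-3.93) had the lowest values, Smad4 (-0.76) and Smad2 (-0.96) were nearer to 0, and Smad7, an inhibitor of the pathway, was higher at 0.82 although its libraries overlapped. Of 10 rows for microRNA genes of the miR-200 family and its relatives, 9 had 0 counts in every library, and libraries primed on poly(A) are not made to capture mature microRNAs.

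The tested genes nearest to each factor over the 7 libraries were found by Euclidean distance of centred log2CPM. Snai2 lay closest to Pdgfrb (distance 0.56), Dkk2 (0.58) and Meis2 (0.63), and Snai1 to Oaf (0.46), Fkbp10 (0.54) and Cdh2 (0.56). Twist1 had the closest neighbour of all 8, Rcn3 (0.17), before Copz2 (0.33) and Fstl1 (0.34). For Twist2 these were Fbln5 (0.80), Fbn2 (0.84) and Tnmd (1.07), and for Zeb2 they were Il1r1 (0.70), Hoxc6 (0.77) and Kif26b (0.85). Zeb1 was nearest to Ppme1 (0.24), Dctn4 (0.29) and Cnnm4 (0.31), whose log2 fold changes (-1.34, -1.48 and -1.21) were near its own of -1.37. Grhl2 was nearest to Pml (0.48), Pnma2 (0.49) and Cbr3 (0.54), and Ovol2 to Tmem170 (0.64), BC064078 (0.76) and Rbm47 (0.84). These distances describe 7 libraries of 2 cell types and share the libraries and their depth. They depend largely on the fold change of each gene and are not a separate result.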

How the data were processed

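RNA-seq of 4 MEF and 3 mESC libraries was used. The authors made 3′-biased libraries with molecular identifiers, aligned reads to mm10 with STAR (2.4.2a in the submitters' processing notes, a later version in the paper), collapsed identifiers with Je, and ran featureCounts over exons. The deposited counts are whole numbers and not normalized. Annotation release and strand setting are not given in the sources used here. Column names give the cell type, a first number, a letter and a last number, but not the sample, so libraries were mapped to groups only. The first number is the same in all columns of both cell types, and whether it marks a shared source is not stated. The letter (O in all MEF and Y in all mESC columns) is not explained in the sources used here. The 26 rows with date-like symbols (0.249% of counts) stayed in library totals.

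edgeR 4.0.16 (R 4.3.3, limma 3.58.1) was run with filterByExpr, TMM and the quasi-likelihood test over all genes and libraries, with Benjamini-Hochberg adjustment and calls under 0.05. log2CPM used a prior count of 2. Single values were compared by exact permutation over 35 assignments (two-sided, smallest p 0.0286; scipy 1.17.1). The code was tested on simulated data. Alternatives were DESeq2 1.42.0, 2 other scalings, 2 other filters, a test against a fold change of 2, log2(CPM + 1), other pseudocounts and thresholds, and leaving out each library. A replicate block by the last number of the column name was chosen after seeing the data. The members and lists were chosen with earlier results of these data known.

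Genes named are all 9 factors, paralogs with at least 10 counts in a library, and the 3 nearest genes of each factor. Those from other lists are fixed interaction partners or among the 3 largest and 3 smallest called fold changes, not all of which are named. Lum, Sfn, Crb3, Cldn3, Cldn6, Ocln, Hif1a, Egr1, Rela, Lef1, Stat3, Gm29100, Gm31166 and 1700108N11Rik were named after their values were seen. Coordinates are from GENCODE M21 (GRCm38), promoters from RefSeq (GRCm38.p6).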

Additional observations from a re-analysis of the deposited data

Results flagged for a closer look

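Among 58 genes checked for a MEF library apart from the other 3, 3 were marked, and chance marks about 1 in 20. Cdh1 had 5.19 CPM (34 counts) in the library of 7312679 counts, and the other 3 had 2.69 to 3.02 CPM. Grhl3 had 1.68 CPM (14 counts) in the MEF library of 9176467 counts, against 0.153 to 0.384 CPM in the others. Gsk3b had 263 CPM (1725 counts) in the MEF library of 7312679 counts, below the 336 to 340 CPM of the others. The mESC group of 3 libraries was not checked in this way.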

How the results depend on the processing

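The 8 tested factors kept their direction under all 14 alternative fits, and their calls too, except that Zeb1 lost its call when tested against a fold change of 2 (log2 fold change -1.37, adjusted p = 0.0604, edgeR). That test left 1714 genes higher and 2277 lower of all genes, and 1 epithelial gene lower. As differences of mean log2(CPM + 1), which shrink low values by construction, Snai1 was -3.64, Twist2 -6.20 and Ovol2 1.39. The Snai1/Snai2 ratio (-0.43) reversed to 0.54 with 2 counts added, and it ran from -1.13 to 0.67 when libraries were left out. With a threshold of 1 log2CPM, 2 factors passed the study's rule, Ovol2 and Grhl2. Of 270 values of the factors and main counts under alternatives, 260 kept their direction and call or moved little. In other lists 784 of 845 did.

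Samples with the same last number in the column name correlated by 0.0042, 0.0227 and 0.0169 in their deviations from the group means. Other pairs of a MEF and an mESC library ran from -0.0525 to 0.0708, so the numbers were not read as pairs. The replicate block gave 3226 genes higher and 3756 lower and kept all 8 factors called. Low counts limit Snai1 and Twist2 in mESCs and Ovol1 and Ovol2 in MEFs.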
